A study of Argopecten irradians with 2 samples.

Results

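Singleton unigenes that were at least 4-fold more abundant in gills of bay scallops (Argopecten irradians) exposed to okadaic acid (OA) than in control gills are described here. A unigene is a transcript sequence assembled from the reads without a genome, and a singleton is one that the clustering step joined to no similar contig, so its ID starts with Unigene and not with CL. The members were chosen by measured values. Each had at least 10 fragments in each library and at least 100 fragments in the 2 libraries together, was under 10000 bp long, had a mean abundance under 100 FPKM (fragments scaled to the length of the transcript and to the mapped fragments of the library), and had an OA-exposed FPKM at least 4 times the control FPKM. These limits gave 90 members among the 42835 singletons and 59688 unigenes listed for either library. The word raised below stands for a ratio of 4 or more within these limits, and lowered for a ratio of 0.25 or less.

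The OA-exposed library came from scallops kept for 48 h in seawater with 500 nM OA, and the control library from scallops kept with the same volume of the solvent dimethyl sulfoxide alone. Gill RNA was sequenced as 1 library per condition, each made, by the description of the series, from the pooled tissue of 18 animals. The methods of the study describe smaller pools taken within replicate tanks, and no library of a single tank was analysed here. With no replicate library, the spread between scallops, tanks or pools is unknown, no test of the conditions was possible, and each interval given below covers counting error only. In bulk gill RNA, a change in the cells that make up the tissue and a change in transcript per cell cannot be told apart. No gene names stand beside the unigene IDs in the files, so the gill origin of the RNA could not be checked against marker genes, no function can be given for a member, and only 2 members are named.

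OA is a polyether named after the sponge Halichondria okadai, from which it was first isolated. Filter-feeding shellfish take it up from toxic microalgae, and people who eat such shellfish develop diarrhoea. Inside cells it blocks enzymes that remove phosphate from serine and threonine residues, PP2A more potently than PP1. The gill of a bivalve filters food particles from the water and exchanges gases, and meets dissolved and particulate toxins before the inner organs do.

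Of the 7302 singletons within the limits on fragments, FPKM and length, 90 (1.23%) were raised, against 69 (0.945%) that were lowered. Among the 15228 unigenes of both kinds within the same limits, 1.8% were raised. The members were therefore a smaller share of their kind than the contigs of clusters, of which 184 of 7926 (2.32%) were raised and 1.7% were lowered. These shares follow from the ratio that chose the members and carry no test. The median log2 ratio of all 7302 singletons was 0.17, with quartiles of -0.39 and 0.67, and the contigs of clusters within the limits had the same median of 0.17.

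The balance between raised and lowered singletons depended on the scaling of the libraries. With FPKM as deposited, raised singletons made up 56.6% of those past 4-fold in either direction. Scaling with TMM (trimmed mean of M-values) factors shifted every log2 ratio by -0.10, and 65 singletons were then raised and 90 lowered, so that the raised share was 41.9%. With upper-quartile and median-of-ratios factors the raised share was 55.0% and 54.7%. Because every ratio moved down by the same factor, the 65 singletons raised under TMM factors were among the 90 members by construction.

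**Figure D1:**
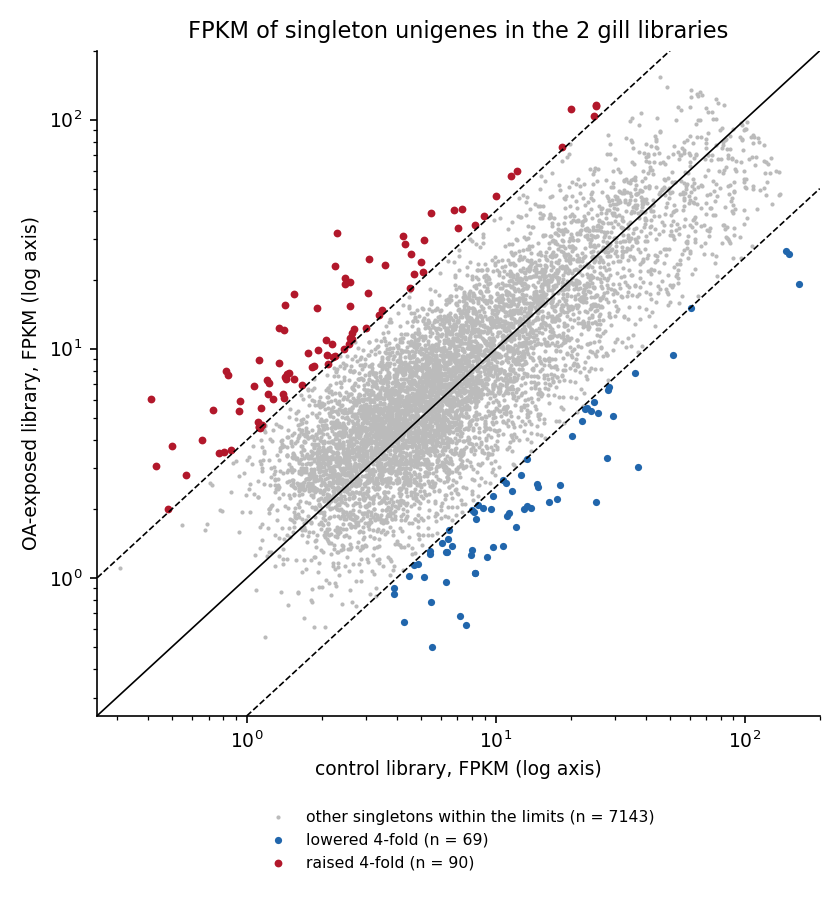
FPKM of the 7302 singletons within the limits in the control library (horizontal log axis) and in the OA-exposed library (vertical log axis), 1 point per unigene, with a solid line at equal FPKM and dashed lines at 4-fold. The 90 raised members (red) reach from 0.41 to 25.2 FPKM in the control, the 69 lowered singletons (blue) lie under the lower dashed line, and TMM factors would place 65 above and 90 below the dashed lines.

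The control FPKM of the members ran from 0.41 to 25.2, with a median of 2.09 and quartiles of 1.2 and 3.56. This median was below the 5.75 FPKM of the singletons within the limits and above the 1.14 FPKM of all singletons listed. In the OA-exposed library they ran from 2.0 to 116 FPKM, with a median of 10.5 and quartiles of 6.91 and 22.6. Control values under 5 FPKM were held by 73 members and under 1 FPKM by 14, while 8 members had at least 10 FPKM. In the OA-exposed gills 26 members had at least 20 FPKM and 4 had more than 100 FPKM. Across members the libraries overlapped, since 46 of the 90 had a control FPKM at or above the lowest OA-exposed FPKM of 2.0. The rule favours a low control and a high OA-exposed value, so these levels are a description. The lowered singletons were the near mirror image, with a median of 10.7 FPKM in the control and 1.99 FPKM in the OA-exposed library.

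Together the 90 members took 9325 of the control fragments and 47206 of the OA-exposed fragments. They made up 0.0809% of the control library, whose expected counts (the estimated fragments per unigene) summed to 11522064, and 0.407% of the OA-exposed library, whose sum was 11607306. The ratio of these shares was 5.02, with an exact 95% counting interval of 4.91 to 5.14. Each member was chosen by its own ratio, so a pooled ratio at or above about the threshold follows from the rule. The interval covers counting error only and leaves out this choice and the differences between members. Few members carried much of the fragment load. The 5 with the most fragments held 34.5% of the members' OA-exposed fragments, and the 10 with the most held 50.7%. Without those 5, the remaining 85 members had a ratio of shares of 5.24.

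The FPKM ratios ran from 4.0 to 14.8 with a median of 4.95. Of the 90 members 46 lay between 4 and 5, 34 between 5 and 8, and 10 at 8 or more. The ratio of the expected counts, each divided by its library total, was close to it, and the FPKM ratio was 0.996 to 1.023 times that ratio over the members. Counting error was larger than that. The lower bound of the exact 95% counting interval was above 2 for all 90 members, above 3 for 77 and above 4 for 38. For the other 52 members the interval included 4, so that counting error alone leaves it undecided on which side of the threshold they lie. A lower bound above 2 followed from the ratio and the fragment minimums that chose the members. It is therefore no separate evidence of a rise.

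**Figure D2:**
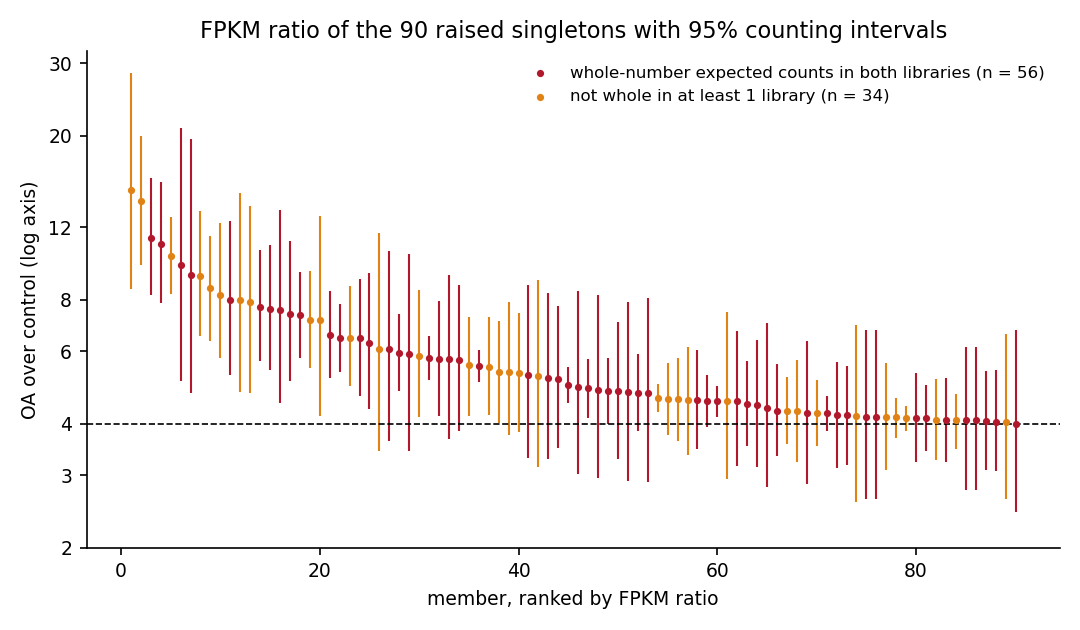
FPKM ratio of OA-exposed over control (points, log axis) for the 90 members ranked from the highest to the lowest, with the exact 95% counting interval of the expected-count ratio (vertical lines) and a dashed line at 4. Red marks the 56 members with whole-number expected counts in both libraries and orange the 34 others, and the intervals of 52 members cross the dashed line.

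The highest ratio belonged to Unigene30964_All, of 2833 bp. It had 13.2 fragments (0.41 FPKM) in the control and 195 fragments (6.05 FPKM) in the OA-exposed library, a 14.8-fold ratio with a counting interval of 8.51 to 28.5. With so few control fragments its place at the top is loose. The intervals of 29 other members overlapped its own, and those of the remaining 60 lay wholly below it.

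The second member by ratio, of 1358 bp, rested on more fragments and had a tighter value. It went from 34.8 to 484 fragments, or from 2.30 to 32.0 FPKM, a 13.9-fold ratio (interval 9.73 to 19.9). The third, of 2411 bp, had 42 and 477 fragments, or 1.54 and 17.4 FPKM, and was 11.3-fold higher under OA (interval 8.21 to 15.8). The fourth, of 2485 bp, was close to it in size and depth, with 40 and 438 fragments and a 10.9-fold ratio (interval 7.85 to 15.4). These neighbours in the order could not be separated within counting error.

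The fifth member by ratio, of 3783 bp, was the only one of the first 10 that was also among the 10 with the most fragments. It had 97.1 control and 996 OA-exposed fragments, or 2.25 and 23.0 FPKM, and its 10.2-fold ratio had the tight interval of 8.27 to 12.7. The sixth and the seventh, of 1111 and 1084 bp, sat at the limit of the rule with 10 control fragments each. They reached 98 and 92 fragments in the OA-exposed library, with ratios of 9.74 (interval 5.07 to 20.9) and 9.17 (interval 4.75 to 19.7). The eighth, of 2506 bp, also had a ratio near 9 but rested on 38.1 and 350.0 fragments, and its interval was 6.53 to 13.1. The ninth, of 3337 bp, was 8.54-fold and the tenth, of 1225 bp, 8.22-fold higher. All 10 had a lower bound above 4, control values from 0.41 to 2.47 FPKM and OA-exposed values from 6.05 to 32.0 FPKM.

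The member with the most fragments was Unigene2906_All, of 4653 bp. It had 977 control and 4061 OA-exposed fragments, or 18.4 and 75.9 FPKM, a 4.14-fold ratio. Although this was the most deeply sequenced member, its interval of 3.85 to 4.43 still included 4. The member next in depth, of 2769 bp, had 790 and 3672 fragments and the highest OA-exposed level of all members, 116 FPKM against 25.1 FPKM in the control. Its 4.63-fold ratio had an interval of 4.27 to 4.99, wholly above 4.

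Another 3 members passed 100 FPKM under OA. One of 2598 bp went from 20.01 to 111 FPKM on 589 and 3278 fragments, a 5.54-fold ratio (interval 5.06 to 6.04). One of 2265 bp went from 25.2 to 115 FPKM on 646 and 2942 fragments, a 4.54-fold ratio (interval 4.15 to 4.93). The last of them, of 1387 bp, went from 24.9 to 103 FPKM on 384 and 1599 fragments, with a ratio of 4.15 whose interval of 3.70 to 4.63 included 4. These were abundant for members, yet none of them was among the 10 highest ratios.

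Of the 10 members with the most fragments, 6 had an interval wholly above 4. Besides those already given, a member of 3550 bp had 463 and 2318 fragments and a 4.98-fold ratio (interval 4.50 to 5.50), and one of 5387 bp had 318 and 1848 fragments and a 5.78-fold ratio (interval 5.12 to 6.52). A member of 4982 bp with 509 and 2170 fragments and one of 4382 bp with 234 and 1068 fragments had intervals that reached below 4, from 3.84 and from 3.93.

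**Figure D3:**
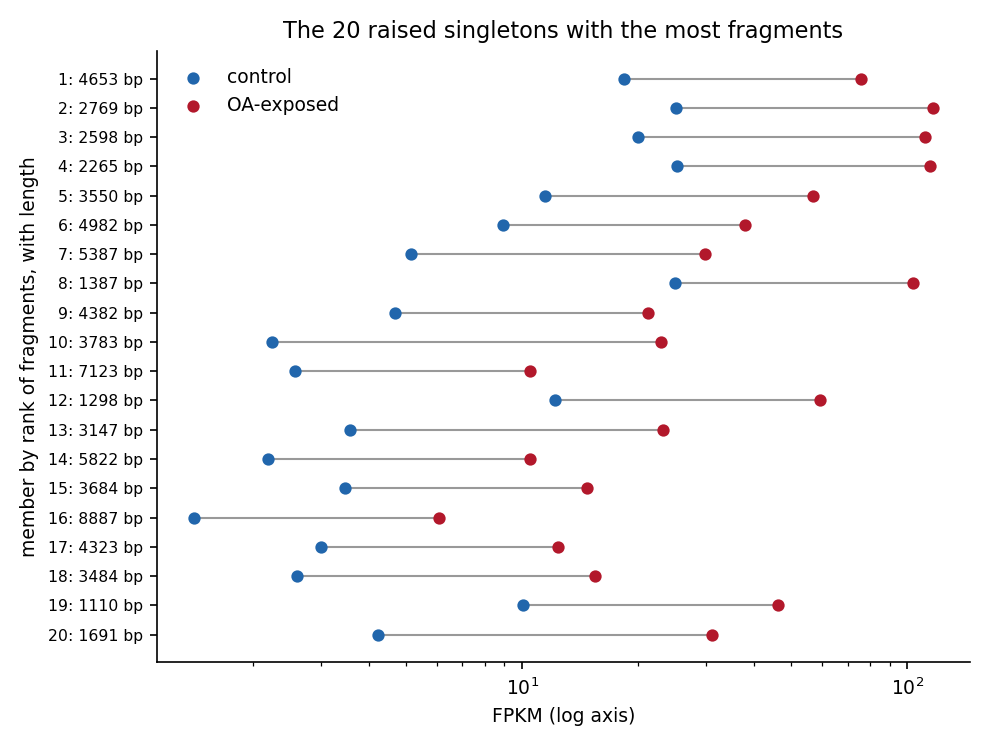
FPKM (log axis) in the control library (blue) and the OA-exposed library (red) of the 20 members with the most fragments, 1 line per member, labelled by rank of fragments and length in bp. The gap between the points is the ratio, widest for the member of 3783 bp at 10.2-fold, and the 4 members with OA-exposed values above 100 FPKM stand at the right.

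Members with more fragments had narrower intervals at the median, although the depth classes overlapped. For the 28 members with 100 to 200 fragments in the libraries together, the upper bound of the interval was 2.74 times the lower bound at the median, and up to 4.14 times. For 34 members with 200 to 500 fragments the median was 1.88 times and the highest 3.35 times. For 16 members with 500 to 1000 fragments the median was 1.55 times and the highest 2.05 times. The 12 members with 1000 fragments or more had a median of 1.24 times and a highest value of 1.53 times. How the ratio itself varied with depth cannot be read from the members, since the minimum of 10 control fragments caps the ratio of a member with few fragments.

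At the threshold, the ratios inside and outside were alike, while the 3 singletons just outside had the higher FPKM in both libraries. The 3 members with the lowest ratios had 4.0, 4.04 and 4.05, with OA-exposed and control values of 4.52 and 1.13 FPKM, 4.53 and 1.12 FPKM, and 4.66 and 1.15 FPKM. The 3 singletons just outside had 3.97, 3.96 and 3.95, with 7.39 and 1.86 FPKM, 9.34 and 2.36 FPKM, and 10.8 and 2.72 FPKM. FPKM were deposited in steps of 0.01, which can move a member's ratio by up to 1.34%, so the side on which the member at 4.0 lies depends on the last digit. At a threshold of 3 the number of raised singletons was 235, and at 5 it was 44.

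The limits also kept out singletons with a larger ratio than any member. Of 107 singletons with at least 100 fragments in all and a ratio of 4 or more, or no control fragment, 17 were not members, and these were looked at after their values were seen. Fewer than 10 control fragments excluded 11 of them. One of 659 bp had 2.06 control and 354 OA-exposed fragments, a ratio of 174 with an interval of 48.3 to 1456, and one of 216 bp had 1 and 173 fragments. One of 1217 bp, with 0 control and 108 OA-exposed fragments, came to a ratio of 35.7 when the control is set to the limit of 3 fragments that a count of 0 allows. Its exact interval, which also covers the error of the 108 fragments, had a lower bound of 28.6. A mean of 100 FPKM or more excluded 5 others, with ratios from 4.2 to 6.92, and a length of at least 10000 bp excluded 1 with a ratio of 5.43.

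Length was not used by the rule beyond its upper limit. The members were 268 to 8887 bp long with a median of 2401 bp, close to the median of 2088 bp of all singletons within the limits. The lowered singletons were shorter, with a median of 1443 bp and a range of 439 to 5901 bp. A length of 2000 bp or more was found in 52 of the 90 members (57.8%) and in 16 of the 69 lowered singletons (23.2%), against 53.1% of all singletons within the limits. At 3000 bp or more the shares were 34.4%, 8.7% and 25.3%. The contigs of clusters had the same order, with a median length of 2734 bp for the raised and 1756 bp for the lowered.

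The ratio of the whole table moved with length in the same sense. The median log2 ratio of the singletons within the limits was -0.17 from 500 to 1000 bp, 0.03 from 1000 to 2000 bp, 0.16 from 2000 to 3000 bp, 0.34 from 3000 to 5000 bp and 0.60 from 5000 bp upward, where 82.6% of the singletons were above 1. Only the 112 singletons under 500 bp, with a median of 0.14, broke this order. The ratio of expected counts, which involves no division by length, gave medians within 0.02 of these. The part of this trend in the members' ratios was not tested, and the centring below is a description. The share lowered fell from 2.08% at 500 to 1000 bp to 0.235% at 5000 bp and over, whereas the share raised was 1.39%, 1.0%, 1.03%, 1.76% and 1.41% in these 5 classes and did not rise steadily. With the log2 ratio centred on the median of its length class, an alternative added after the trend had been seen, 66 singletons were raised, 62 of them members, and 87 were lowered. All members had a centred ratio of at least 2.69, and 87 of them one of at least 3. A floor near 2.69 was set by the ratio that chose the members and by the largest class median, 0.60. It is therefore not a test of the length trend.

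**Figure D4:**
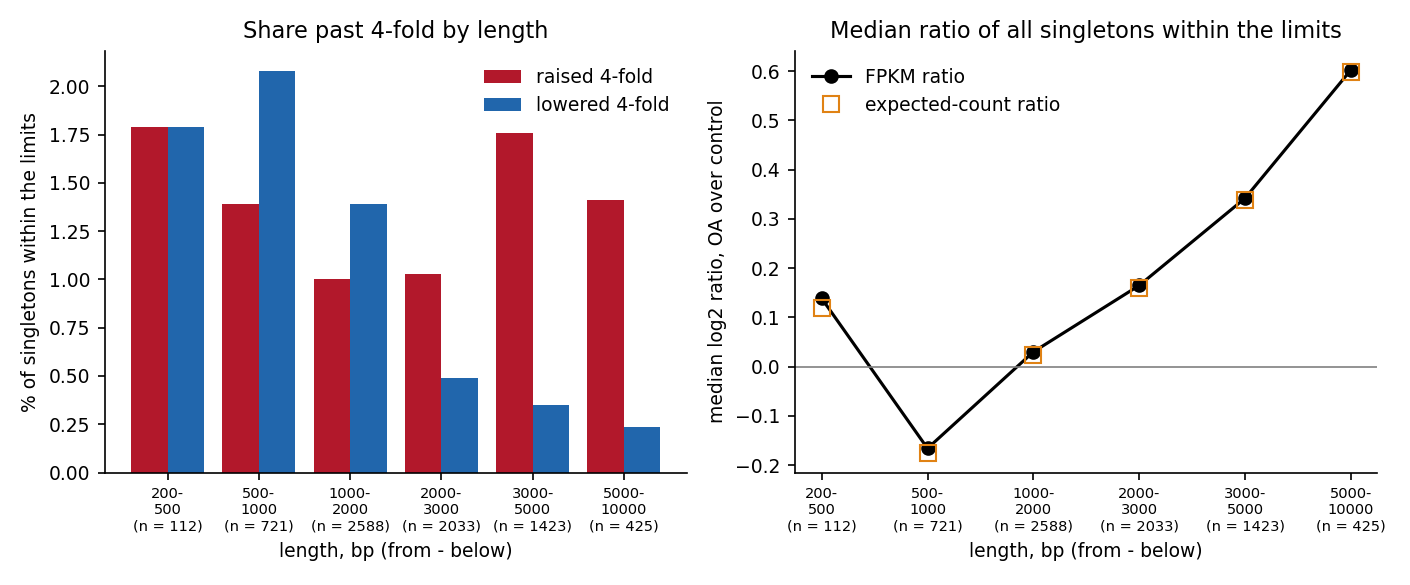
Singletons within the limits by length class in bp, with the number in each class under the axis. Left, bars give the percentage raised (red) and lowered (blue) 4-fold. Right, the median log2 ratio of OA-exposed over control from FPKM (black points) and from expected counts (orange squares) climbs from -0.17 at 500 to 1000 bp to 0.60 at 5000 bp and over.

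The values of the longest and the shortest members are given as a description. The longest, of 8887 bp, had 144 and 624 fragments but only 1.41 and 6.07 FPKM, a ratio of 4.30 (interval 3.58 to 5.19). The next, of 7123 bp, had 211 and 862 fragments and 2.57 and 10.5 FPKM, a ratio of 4.08. The other 3 of the 5 longest, of 5764, 5822 and 5851 bp, had ratios of 4.58, 4.80 and 4.21. The shortest, of 268 bp, reached 40.2 FPKM from 6.79 FPKM on no more than 17 and 99 fragments, a 5.91-fold ratio with the wide interval of 3.43 to 10.3. That of 309 bp had 21 and 99 fragments and a 4.77-fold ratio. Members of 613, 743 and 783 bp followed, with ratios of 4.25, 4.2 and 7.99. All 5 shortest members had at least 21.6 FPKM under OA and none of the 5 longest had more than 10.5 FPKM. The fragment minimums let a short unigene in only at a high FPKM and a long one at a lower FPKM. This contrast therefore follows in part from the rule.

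Within the members as chosen, the median ratios differed little by length. The 38 members under 2000 bp had a median ratio of 5.19 and the 52 of 2000 bp or more one of 4.80. The 10 highest ratios included 6 of 2000 bp or more. The Spearman correlation of ratio and length over the 90 members was -0.19. How the ratio varied with length cannot be read from these values. The rule cut the ratios off from below, and its control minimum capped those of members with few fragments.

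The expected counts of some members were not whole numbers (within 0.001). RSEM gives fractions when fragments map to more than 1 unigene and are divided among them. A fraction in at least 1 library was found in 34 of the 90 members (37.8%) and in 26 of the 69 lowered singletons (37.7%), against 1522 of the 7302 singletons within the limits (20.8%). Of the 1522 singletons with fractions 2.23% were raised and 1.71% lowered, and of the 5780 with whole counts 0.969% were raised and 0.744% lowered. Contigs of clusters had fractions in 89.7% of the raised, 84.4% of the lowered and 74.3% of all within the limits. Among contigs with whole counts the raised share was 0.931%, close to that of the singletons with whole counts, and the lowered share was 1.03%.

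Both of the highest ratios, and 6 of the 10 highest, belonged to members with fractions. Among the members, the median ratio was 5.33 for the 34 with fractions and 4.87 for the 56 with whole counts. Unigene2906_All also had fractions. The highest ratio among members with whole counts was that of the member of 2411 bp, at 11.3. How the division of shared fragments entered these values was not tested.

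The number in a unigene's ID was also not used by the rule, and it separated kinds of singletons. Among the 26805 singletons numbered 1 to 27500, 3.37% were listed for the OA-exposed library alone and 5.04% for the control alone, and their median length was 754 bp. Among the 16030 with higher numbers, 26.0% and 24.6% were listed for one library alone, and their median length was 273 bp. Of the 90 members 80 came from the lower numbers, where 1.15% of 6981 singletons within the limits were raised, and 10 from the higher numbers, where it was 3.12% of 321. The blocks were compared after the values had been seen.

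Within the higher numbers the libraries were unevenly placed. From 30001 to 35000, 41.1% of 4309 singletons were listed for the OA-exposed library alone and 6.71% for the control alone. Only 49 of these singletons were within the limits, and 5 of them (10.2%) were members and 0 were lowered. Their median log2 ratio was 0.68. Both members with the highest ratios were among these 5. The block with the most members was that from 2501 to 5000, with 19 of 1134 within the limits (1.68%) and the longest median length of any block, 1211 bp. What the numbering stands for is not given in the sources used here, and its part in the ratios was not tested.

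**Figure D5:**
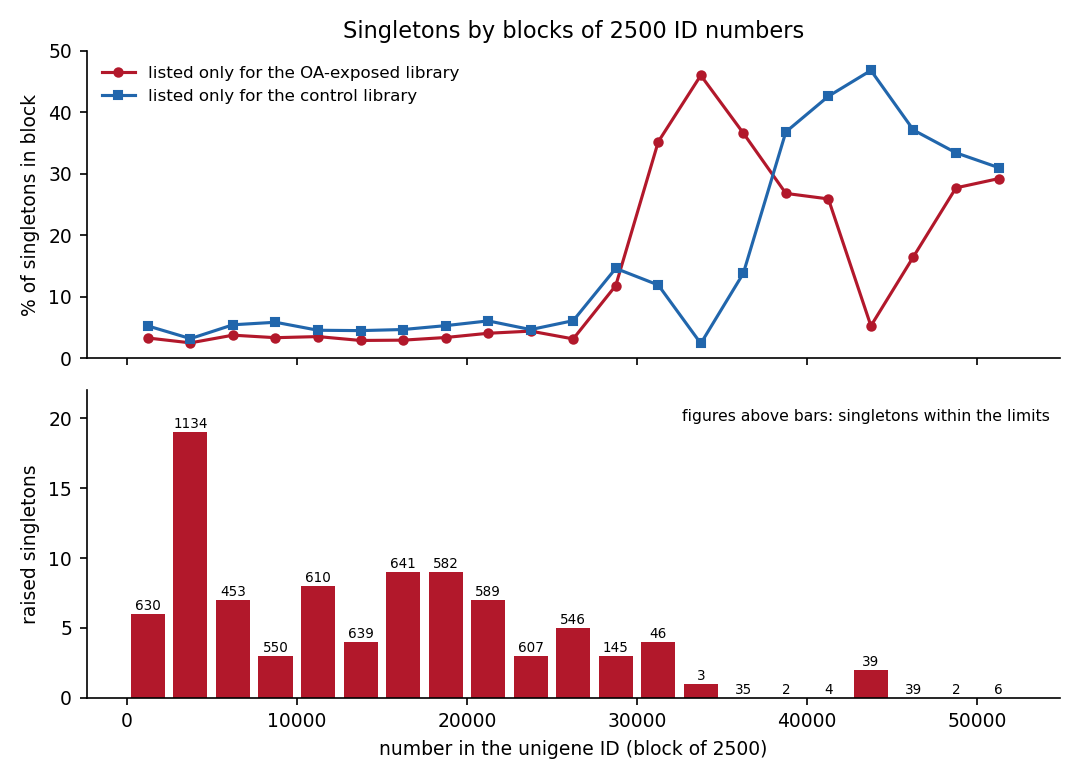
Singletons in blocks of 2500 consecutive ID numbers. Top, the percentage of singletons listed only for the OA-exposed library (red) or only for the control library (blue). Bottom, the number of raised members in each block, with the number of singletons within the limits above each bar. From 30001 to 35000 the red line reaches 46.0% and 5 of 49 singletons within the limits were members.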

How the data were processed

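Reads were cleaned (SOAPnuke), assembled without a genome (Trinity), clustered (TGICL), mapped back to the unigenes (Bowtie) and quantified (RSEM) by the authors. For each library the authors deposited RSEM's expected counts, not normalized. The deposited FPKM divide these by effective length and by mapped fragments, and both are given to 2 decimals. Unigenes at 0 are not listed and were set to 0. The authors' table of their own comparison (fold changes, p-values and FDR) was not used.

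Samples were grouped by the treatment label. The median expected count of a listed unigene was 12 for the control and 13 for OA. Members were selected on the FPKM as deposited. Counting intervals (95%, Clopper-Pearson, exact, on the OA share of a unigene's fragments) were computed on expected counts rounded to whole fragments, scaled by library totals (scipy 1.17.1). The intervals cover counting error only and treat fragments as independent. Fragments from PCR are not independent molecules, and the division of shared fragments among unigenes is left out, so the intervals can be too narrow. With 1 library per condition the tests of edgeR and DESeq2 have no residual degrees of freedom. Only their scaling factors were used (edgeR 4.0.16, DESeq2 1.42.0, R 4.3.3), and the Poisson test of the study was not repeated, since it rests on the ratio that chose the members. The alternatives covered scaling, pseudocounts of 0.1 and 1, read minimums, thresholds, thinning to 50%, length limits and, added after seeing the data, length centring, whole counts and ID numbers.

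The members, the comparison groups and the measures were chosen with earlier results of these data known. The 2 members named are those with the highest ratio and with the most fragments. The others described are the 10 highest by ratio and by fragments, the 5 longest and shortest, and the 3 on each side of the threshold. No sequence is shown, since the unigene IDs could not be matched to the list of genes of a later assembly.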

Additional observations from a re-analysis of the deposited data

How the results depend on the processing

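The number of raised singletons stayed within 1.5 times the 90 reported under 13 of 19 alternatives, from 61 with the doubled read minimums to 134 with no minimum on both libraries together. It was 35 with 1 added to both FPKM, 235, 44 and 10 at thresholds of 3, 5 and 8, 38 where the lower bound of the interval had to reach 4, and 56 among singletons with whole counts. The 65 raised under TMM factors were members by construction, and 74 of the 96 raised after thinning to 50% of the fragments were members. For lowered singletons, 69 as reported, the same settings gave 30, 192, 33, 7, 27 and 43, and the number was 109 with no minimum together and 27 with the doubled minimums, so that the raised share of both was then 69.3%. For raised contigs of clusters, 184 as reported, these settings gave 68, 404, 87, 21, 78 and 19, and 114 with the doubled minimums. The median ratio of the members, 4.95 from FPKM, was 4.60 with TMM factors, 3.71 with 1 added to both FPKM, 5.11 after thinning and 4.70 with length centring, and moved less under the other 4 alternatives. After thinning 75 of the 90 members kept a ratio of at least 4, of which 74 also met the limits applied after thinning, and the lowest ratio was 3.19. Thinning draws on the same fragments that chose the members. The causes were not tested, beyond fewer unigenes or fragments entering by construction. With 1 library per condition none of these settings speaks to the variation between pools of scallops.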
